A study of Mus musculus with 28 samples.

Results

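The kainate receptor subunits are 5 of the 52636 genes in the deposited files, Grik1, Grik2, Grik3, Grik4 and Grik5, chosen by matching their symbols to Ensembl mouse gene identifiers. They were read in RNA sequencing libraries of the ventromedial prefrontal cortex of 28 female mice, 1 library per mouse and 7 mice per group. The groups were a virus labelled Slit1 knockdown with 3 days of the stress procedure the labels call sCVS, the same virus without stress, a LacZ control virus with stress, and LacZ without stress. All mice had received a virus into the region, and the labels used here gave no strain, age, promoter or viral serotype, nor the share of cells infected. All 5 markers of excitatory cortical neurons passed the count filter and summed to between 253 and 1472 CPM, which are fragment counts scaled to a common library size after TMM normalization. Passing the filter does not identify the region, as all 4 hippocampal neuron markers and all 3 bone markers passed it too.

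Kainate receptors are glutamate-gated cation channels built from a ring of subunits. The low-affinity subunits, encoded by Grik1 to Grik3, can form channels alone, and the high-affinity subunits, encoded by Grik4 and Grik5, reach the cell surface as channels only together with a low-affinity partner. In cortex they act on both sides of the synapse, giving slow postsynaptic currents and tuning the release of glutamate and GABA.

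The values are counts of fragments over whole genes, introns included, and these are long genes. On GRCm38, Grik1 (ENSMUSG00000022935) lies at chr16:87895901-88290258 on the minus strand and spans 394 kb, of which exons make up 1.70%. Grik2 (ENSMUSG00000056073) lies at chr10:49094833-49788766 on the minus strand and is the longest, with 694 kb and 1.91% exons. Grik3 (ENSMUSG00000001985) lies at chr4:125490700-125714173 on the plus strand, with 223 kb and 4.02% exons. Grik4 (ENSMUSG00000032017) lies at chr9:42518135-42944493 on the minus strand, with 426 kb and 1.40% exons. Grik5 (ENSMUSG00000003378) lies at chr7:25009849-25072346 on the minus strand and is the shortest, with 62.5 kb and 8.27% exons. The median tested gene spanned 22.3 kb, so even Grik5 was longer than most. No annotated gene overlapped a member on the opposite strand, and the 10 small same-strand genes inside Grik2, Grik3 and Grik4 were at 0 counts in all 28 libraries.

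The coding sequences differ in base composition, and the libraries differed in the level of GC-rich against AT-rich genes. The same stretch of 120 coding bases from each member is shown, from just before the glutamine codon of the pore loop, the Q/R site that ADAR enzymes edit in Grik1 and Grik2 transcripts, to the end of the conserved membrane segment that lines the channel. Capitals mark G and C.
Grik1: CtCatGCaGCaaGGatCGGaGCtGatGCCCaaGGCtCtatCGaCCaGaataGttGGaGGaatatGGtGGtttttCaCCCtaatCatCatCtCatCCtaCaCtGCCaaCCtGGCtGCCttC
Grik2: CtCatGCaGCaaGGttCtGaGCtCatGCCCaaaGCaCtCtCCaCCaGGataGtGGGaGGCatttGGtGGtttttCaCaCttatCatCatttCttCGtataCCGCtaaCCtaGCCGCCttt
Grik3: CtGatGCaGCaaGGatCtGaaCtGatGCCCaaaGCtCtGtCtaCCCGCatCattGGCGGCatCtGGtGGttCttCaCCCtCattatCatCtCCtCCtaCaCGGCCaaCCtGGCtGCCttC
Grik4: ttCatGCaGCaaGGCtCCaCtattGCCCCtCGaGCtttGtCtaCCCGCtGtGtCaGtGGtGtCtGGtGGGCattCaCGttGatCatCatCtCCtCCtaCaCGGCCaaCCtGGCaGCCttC
Grik5: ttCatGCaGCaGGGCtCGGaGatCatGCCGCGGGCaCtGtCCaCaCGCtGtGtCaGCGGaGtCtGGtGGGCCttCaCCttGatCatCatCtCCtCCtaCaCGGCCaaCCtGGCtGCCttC

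The stretches were read from GENCODE transcripts on GRCm38, each joined from 2 exons, so the coordinates include an intron. They are at chr16:87936009-87940550, chr10:49240690-49244337, chr4:125691201-125694068, chr9:42543869-42547631 and chr7:25015919-25022505 in the order printed, on the strands given above. Grik1 and Grik2 encode the same residue at 40 of 40 codons there yet use a different codon at 22 of them. Grik2 and Grik5 share 33 of 40 residues and write 20 of these with another codon. At the last position of its codons, G or C made up 57.5% in Grik2, 62.5% in Grik1, 70% in Grik4, 75% in Grik3 and 87.5% in Grik5. Over whole coding sequences the order was the same, with 49.0% in Grik2, 56.3% in Grik1, 70.6% in Grik4, 76.1% in Grik3 and 80.3% in Grik5. The longest annotated transcripts held 37.9% GC in Grik2, 47.9% in Grik1, 52.2% in Grik4, 54.2% in Grik3 and 61.7% in Grik5. The low value of Grik2 goes with a 3′ untranslated region of 6275 bases at 33.2% GC. The GC content of the introns, which make up most of each counted span, was not measured.

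All 5 members passed the count filter, in a table of 19171 tested genes and libraries of 30.6 to 44.3 M counted fragments. Earlier results of these data found 3 libraries to stand apart. Knockdown stressed replicate 2 held 694 CPM of bone markers, against at most 10.5 CPM in any other library, and knockdown stressed replicate 7 held 219.5 CPM of striatal markers, against at most 136 CPM. In LacZ stressed replicate 4 the cytotoxic T cell markers summed to 0.498 CPM, where the next lowest library had 4.31 CPM and the highest 154 CPM. The members of these 3 libraries lay within the range of the other 25 except Grik4 in knockdown stressed replicate 7, the lowest of all at 24.2 CPM.

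None of the 7 comparisons of the design called any member, and none called any gene at an adjusted p under 0.05, so the background share called was 0% in each. The members differed widely between mice of the same group. Over the 28 libraries log2 CPM correlated positively between Grik1 and Grik2 and among Grik3, Grik4 and Grik5, and negatively between these 2 sets, from a Pearson's r of -0.292 for Grik1 with Grik4 to -0.761 for Grik2 with Grik5. Single libraries departed from this, as knockdown unstressed replicate 2 was the highest of 28 for Grik3, Grik4 and Grik5 and the third highest for Grik1, at 173 CPM.

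Slit1, the gene the virus was labelled to knock down, did not differ between the viruses beyond the spread between mice. Its median was 13.03 CPM in knockdown-labelled and 13.5 CPM in LacZ libraries with stress, and 21.4 CPM in knockdown-labelled and 16.9 CPM in LacZ libraries without stress. Its log2 fold change over stressed and unstressed mice together was -0.02 ± 0.30 (SE, 14 against 14 libraries), with an adjusted p of 1.00 in edgeR's quasi-likelihood F test, Benjamini-Hochberg adjusted. Every direction given for the knockdown therefore rests on the label.

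Grik2, the principal subunit of most forebrain kainate receptors, was the most strongly counted member. It had 525 CPM in the lowest, 829 in the median and 1645 in the highest of the 7 knockdown stressed libraries, and 652, 1131 and 2656 CPM in the same order in knockdown unstressed libraries. In LacZ stressed libraries it had 488, 943 and 1695 CPM, and in LacZ unstressed libraries 471, 1144 and 2442 CPM. The 4 groups overlapped over most of their ranges, while the highest library of all 28 held 5.64 times the CPM of the lowest, after TMM normalization. In raw fragments the highest was LacZ unstressed replicate 7 with 71549, against 50408 in knockdown unstressed replicate 7, the highest by CPM.

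Grik1, whose subunit is known in cortex from inhibitory interneurons among other cells, varied least. It had 73.6 CPM in the lowest, 99.8 in the median and 149 in the highest knockdown stressed library, and 82.3, 133 and 212 CPM in knockdown unstressed libraries. In LacZ stressed libraries it had 67.5, 91.5 and 158 CPM, and in LacZ unstressed libraries 79.1, 109 and 225 CPM. Its highest library, LacZ unstressed replicate 7, was the second highest for Grik2, and knockdown unstressed replicate 7 was the highest for Grik2 and the second for Grik1.

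Grik3, which encodes a subunit of low sensitivity to glutamate that is known from presynaptic receptors, had 22.5 CPM in the lowest, 38.9 in the median and 110.5 in the highest knockdown stressed library. Knockdown unstressed libraries had 27.6, 45.8 and 234 CPM. LacZ stressed libraries had 31.5, 48.8 and 115 CPM, and LacZ unstressed libraries 39.1, 52.6 and 135 CPM. The groups again overlapped, and 1 mouse, knockdown unstressed replicate 2, stood above all others at 234 CPM, where the next of its group had 138 CPM.

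Grik4, a high-affinity subunit best known from the hippocampus, had 24.2 CPM in the lowest, 32.5 in the median and 82.3 in the highest knockdown stressed library, and 26.2, 37.2 and 130.0 CPM in knockdown unstressed libraries. LacZ stressed libraries had 27.3, 41.8 and 57.9 CPM, and LacZ unstressed libraries 32.95, 42.1 and 79.9 CPM. As for Grik3, the highest value came from knockdown unstressed replicate 2.

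Grik5, the high-affinity subunit that most often joins the Grik2 product in brain, had 7.22 CPM in the lowest, 11.6 in the median and 29.6 in the highest knockdown stressed library. Knockdown unstressed libraries had 4.27, 19.2 and 61.9 CPM. LacZ stressed libraries had 9.49, 11.8 and 31.6 CPM, and LacZ unstressed libraries 10.8, 12.6 and 53.8 CPM. It had the widest range of the family, 14.5-fold over 28 libraries, and its lowest value came from 81 fragments in knockdown unstressed replicate 7, the library with the highest Grik2 CPM.

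**Figure D1:**
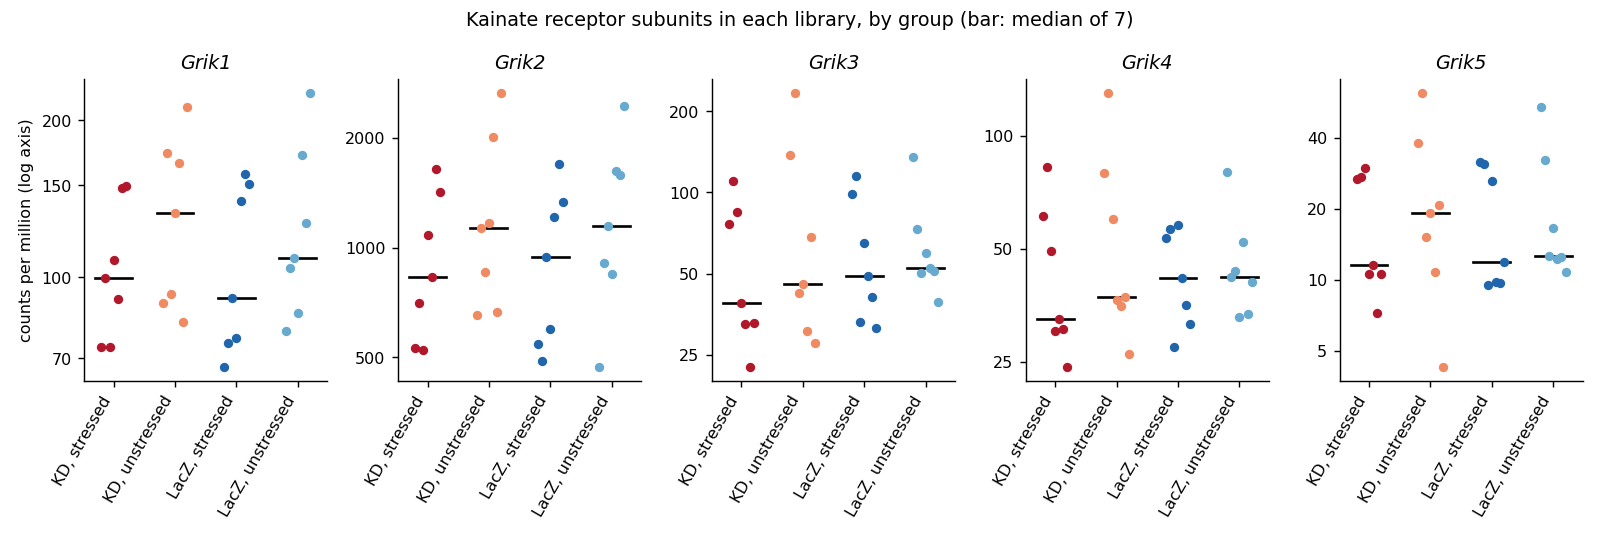
CPM of each subunit in the 28 libraries on log axes, by group, with 1 point per mouse and a bar at the median of 7. The groups overlap for every subunit, and the highest Grik3, Grik4 and Grik5 values, 234, 130.0 and 61.9 CPM, belong to the same knockdown unstressed mouse.

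The order of the levels was taken per length, as CPM per kb of gene span, since the fragments were counted over spans. By the mean, Grik2 led with 1.63 ± 0.84 CPM per kb (SD, n = 28), Grik5 followed with 0.328 ± 0.224, Grik1 with 0.304 ± 0.110, Grik3 with 0.300 ± 0.206, and Grik4 was last with 0.112 ± 0.0538. Grik2 lay above Grik5 in 27 of 28 libraries and above the other members in all 28. Grik5, Grik1 and Grik3 could not be ordered beyond their spread, as Grik5 exceeded Grik1 in 13 libraries and Grik1 exceeded Grik3 in 16. By the median Grik1 stood at 0.269, Grik3 at 0.227 and Grik5 at 0.222 CPM per kb. Grik4 lay below every other member in 28 of 28 libraries.

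The order depended on the length used. Per kb of merged exons Grik2 was first with 85.5 CPM per kb, followed by Grik1 with 17.8, Grik4 with 8.04, Grik3 with 7.47 and Grik5 with 3.97. Grik5, whose exons fill 8.27% of its span, was thus last per exon length and level with Grik1 and Grik3 within their spread per span. The share of fragments from introns was not measured.

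The make-up of the family differed widely between libraries. In knockdown unstressed replicate 7, Grik2 made up 82.9% of the summed level per kb of span and Grik5 1.48%, so that Grik2 held 622 times the CPM of Grik5. In LacZ unstressed replicate 1, Grik2 made up 26.8% and Grik5 34.01%, and the ratio of their CPM was 8.75. These are the 2 ends of the 28 libraries in their GC slope, defined as the change in log2 CPM over all other genes per 10 percentage points of exonic GC. The slope was -1.17 in knockdown unstressed replicate 7 and 1.21 in LacZ unstressed replicate 1. Group medians of the slope, at -0.20 in knockdown stressed, -0.03 in knockdown unstressed, -0.30 in LacZ stressed and -0.27 in LacZ unstressed libraries, lay close together beside that range. The slope also went with the order of deposition, in which the 4 groups alternate until near the end. There knockdown stressed replicates 6 and 7, with slopes of -0.89 and -0.44, come last, after the other libraries numbered 7. The 4 libraries numbered 1, 1 from each group, had slopes of 0.54 to 1.21 and those numbered 2 had 0.45 to 0.89, while those numbered 5 had -0.74 to -0.31 and those numbered 7 had -1.17 to -0.30. Numbers 3, 4 and 6 held slopes on both sides of 0. The labels name no batch behind these numbers.

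**Figure D2:**
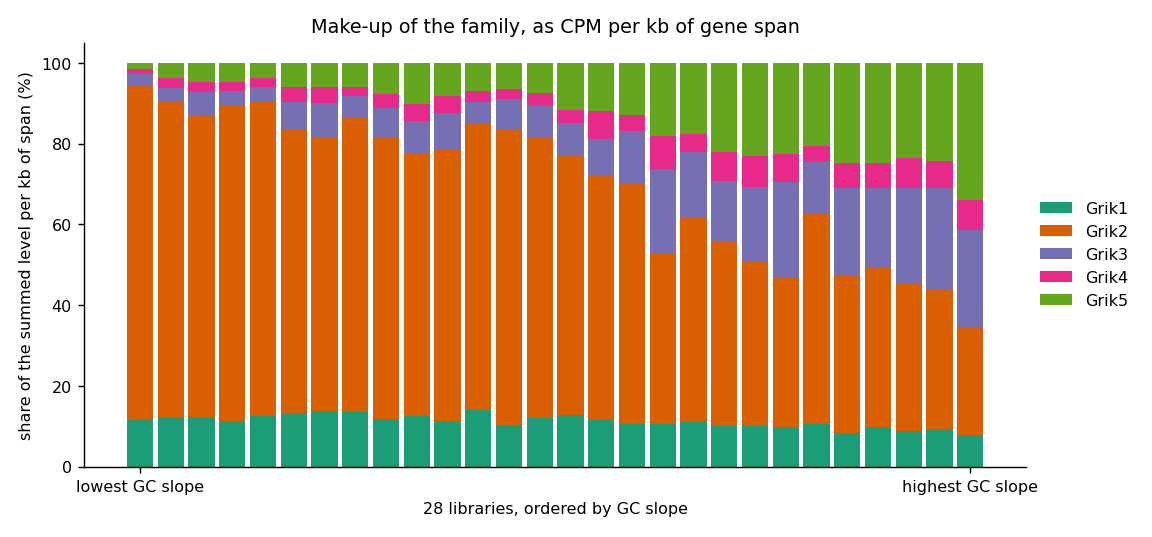
Share of each subunit in the summed CPM per kb of gene span, for the 28 libraries ordered from the lowest to the highest GC slope. Grik2 makes up 82.9% at the low end and 26.8% at the high end, while Grik5 makes up 1.48% and 34.01%.

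Each member was then tested against the GC slope in a fit that also held the 4 groups, with the members left out of the slope. The slope is made from the same libraries, so the test describes how a gene moved with the rest of its library. Of all genes tested, 77.0% were called, 40.3% higher and 36.8% lower with the slope, and the members were 5 of 5, a share to be read against that background. Per SD of the slope over 28 libraries, Grik2 changed by -0.64 ± 0.05 in log2 (SE, adjusted p = 5.14e-12) and Grik1 by -0.38 ± 0.06 (adjusted p = 1.21e-06), in edgeR's quasi-likelihood F test, Benjamini-Hochberg adjusted. By the same test Grik5 changed by 0.86 ± 0.06 (adjusted p = 2.86e-13), Grik3 by 0.72 ± 0.08 (adjusted p = 9.73e-09) and Grik4 by 0.42 ± 0.08 (adjusted p = 4.59e-05). The sign followed the GC content of the transcript, below 0 for the 2 members under 48% GC and above 0 for the 3 members over 52% GC.

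**Figure D3:**
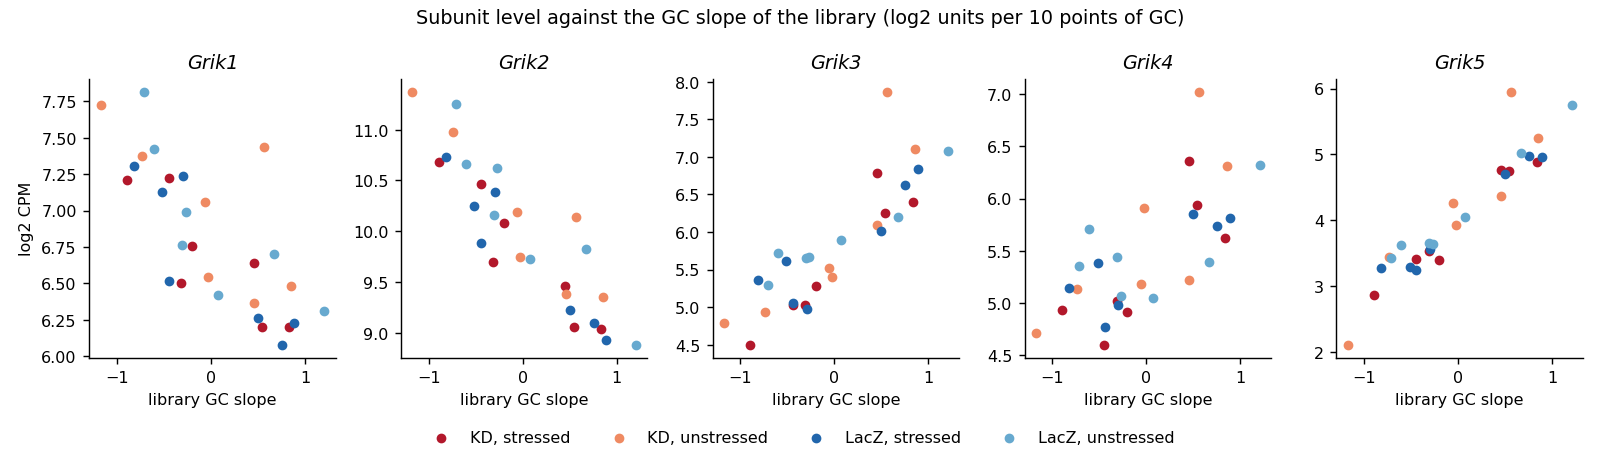
Level of each subunit (log2 CPM) against the GC slope of its library (log2 units per 10 percentage points of exonic GC), with 1 point per library coloured by group. Grik1 and Grik2 go down from left to right, Grik3, Grik4 and Grik5 go up, and the 4 groups are mixed along the axis.

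The median coefficient of the genes in each member's GC class had the member's sign, and 3 of the 5 members lay outside the interquartile range of their class. Genes under 40% GC, the class of Grik2, had a median coefficient of -0.53, and those with 45 to 50%, the class of Grik1, one of only -0.05. Those with 50 to 55% had one of 0.35, and those with 60% or more one of 0.84. Grik5 with 0.86 and Grik4 with 0.42 lay inside the interquartile ranges of their classes, 0.50 to 1.19 and 0.10 to 0.62. Grik2 with -0.64 lay just below the interquartile range of the genes under 40% GC, which was -0.63 to -0.43. Grik1, at 47.9% GC, had -0.38, below the interquartile range of the genes with 45 to 50% GC, which ran from -0.22 to 0.13. Grik3, at 54.2% GC, had 0.72, above the interquartile range of its class, which it shares with Grik4.

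Of the other ionotropic glutamate receptor subunits, the AMPA, NMDA and delta families, 12 were tested, and 4 were called higher and 6 lower with the GC slope. With 77.0% of all genes called, that count is near the background. Grin1, the obligatory NMDA receptor subunit, had 0.65 ± 0.04 (SE) at 59.4% GC, and Grin2c, an NMDA subunit, had 1.02 ± 0.09 at 62.1% GC. Gria2, the AMPA receptor subunit that limits calcium entry, had -0.56 ± 0.04 at 36.8% GC, and Gria4, another AMPA subunit, had -0.57 ± 0.06 at 44.3% GC. The difference between the kainate subunits and these families was not tested.

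Libraries also differed in the level of long genes, which all members are. A length slope was computed after the GC slope had been seen, as the change in log2 CPM per doubling of gene span at equal GC, and it ran from -0.07 to 0.10 over the 28 libraries. With both slopes in the fit, 21.2% of all genes were called with the length slope and 9.86% were called higher, against 51.7% called higher among genes spanning 200 kb or more and 15.9% among those of 50 to 100 kb, the class of Grik5. All 5 members were called higher. Of the 12 other ionotropic glutamate receptor subunits tested, all 12 also lay above 0 and 9 were called higher. Per SD of the length slope, Grik4 had 0.62 ± 0.09 in log2 (SE, adjusted p = 4.64e-05) and Grik3 0.61 ± 0.09 (adjusted p = 3.00e-05), in edgeR's quasi-likelihood F test, Benjamini-Hochberg adjusted. Grik5 had 0.45 ± 0.06 (adjusted p = 2.34e-05), Grik1 0.40 ± 0.08 (adjusted p = 7.40e-04) and Grik2 0.28 ± 0.08 (adjusted p = 0.0145), by the same test. The Grik2 call rests on 1 library, with 0.24 ± 0.12 and an adjusted p of 0.144 without knockdown unstressed replicate 2. Without knockdown unstressed replicate 6, 2646 genes were called with the length slope, against 4062 with all libraries.

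**Figure D4:**
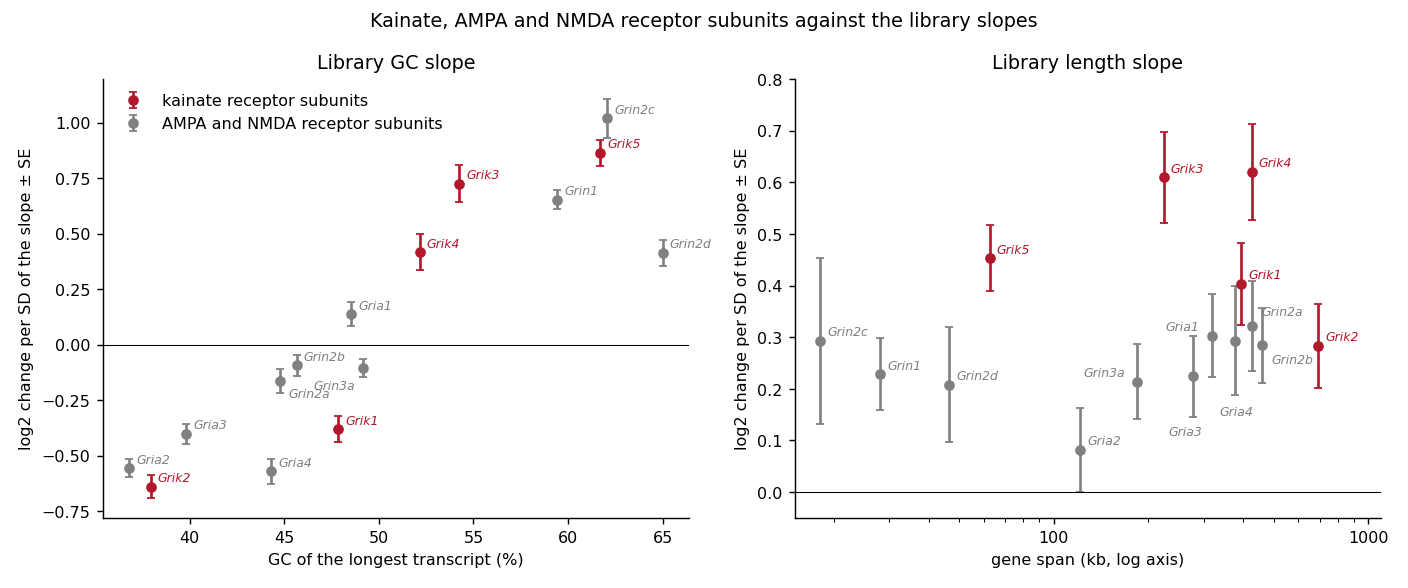
Left, the log2 change per SD of the library GC slope against transcript GC content, and right, the log2 change per SD of the length slope against gene span on a log axis, for the 5 kainate (red) and 10 AMPA and NMDA receptor subunits (grey), with SE. Kainate subunits run from -0.64 for Grik2 to 0.86 for Grik5 on the left, and all 15 subunits plotted lie above 0 on the right.

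Some markers of cell types moved with the same slopes. The mitochondrial share was read beside them and was not tested against either slope. The part of the markers and of this share in the results was not tested. All 5 microglia markers were called higher with the GC slope, as were 40.3% of all genes, and lower with the length slope, as were 11.3%. Their summed level was 84.6 CPM in knockdown unstressed replicate 7 and 402 CPM in LacZ unstressed replicate 1. Over the groups that sum ran from 113 to 450 CPM in knockdown stressed, 80.2 to 395 in knockdown unstressed, 76.9 to 448 in LacZ stressed and 63.4 to 402 in LacZ unstressed libraries. Other lists were split with the GC slope. Of 5 astrocyte markers 1 was called higher and 4 lower, and of 5 excitatory neuron markers 2 were called higher and 2 lower. Of 7 interneuron markers 3 were called higher and 3 lower. All 5 excitatory neuron markers had a length coefficient above 0, and 2 of them were called, where 9.86% of all genes were called higher. Of 7 interneuron markers, 2 had a length coefficient above 0 and 1 was called, lower. Mitochondrial genes took 14.2% of the fragments in knockdown unstressed replicate 7, 3.10% in LacZ unstressed replicate 1 and 2.30% in knockdown unstressed replicate 2, the lowest share of all. The length slopes of these libraries were 0.10, -0.06 and 0.07 in the same order. The next lowest shares, 3.08% in LacZ stressed replicate 2 and 3.09% in knockdown stressed replicate 1, stood beside length slopes of -0.07 and -0.02. In bulk tissue, fewer cells of a type and less RNA per cell cannot be told apart.

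The 2 slopes took up most of the spread between mice of a group. The GC slope alone accounted for 90.1% of the variance of log2 CPM within groups for Grik5, 86.9% for Grik2, 76.3% for Grik3, 63.5% for Grik1 and 50.2% for Grik4. With both slopes these shares were 96.3%, 91.4%, 91.0%, 82.0% and 81.9% in the same order. The SD within groups of Grik5 was 0.96 in log2 and 0.19 with both slopes taken out, where the median over all genes tested was 0.57 and 0.28.

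The correlations between members changed once the slopes were taken out. With groups and the GC slope taken out, all 10 pairs were above 0, the pairs across the 2 sets lying between 0.226 for Grik2 with Grik4 and 0.642 for Grik1 with Grik5. Much of this rested on 2 libraries in each pair. Here and below, the first-named gene of a pair set which 2 libraries were left out, so they can differ between pairs. Without the 2 farthest from the median, the pairs across the sets lay between 0.081 for Grik2 with Grik4 and 0.418 for Grik1 with Grik5. Grik2 with Grik3 then fell from 0.413 to 0.092. Grik1 and Grik2 had a Pearson's r of 0.943 (rho 0.932, and r 0.922 when the 2 libraries farthest from the median were dropped), and r was still 0.846 with groups and both slopes taken out. Grik3 and Grik5 had r = 0.928 (rho 0.907, and r 0.909 without the 2 farthest), but 0.06 with both slopes taken out. Grik2 and Grik5 had r = -0.761 (rho -0.747, and r -0.716 without the 2 farthest), and 0.07 with both slopes taken out. Of the 10 pairs only Grik1 with Grik2 stayed above 0.5 in size once both slopes were removed, and Grik2 with Grik4 had -0.494. These values are descriptions, with no test.

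The genes whose log2 CPM was most like each member over the 28 libraries, after groups and GC slope were taken out, spanned 151 to 1478 kb. For Grik1 these included Slc35f1 (r = 0.948) and Magi2 (r = 0.932), which encodes a synaptic scaffold. For Grik2 they were Cep112 (r = 0.917), Faf1 (r = 0.895) and Dok6 (r = 0.894), and for Grik3 Sdk2 (r = 0.933), Csmd2 (r = 0.894) and Dst (r = 0.876). Grik4 was most like the calcium channel subunit gene Cacnb4 (r = 0.944), the acid-sensing channel gene Asic2 (r = 0.940) and Sergef (r = 0.935). For Grik5 they were Lrfn2 (r = 0.902), a synaptic adhesion gene, Btrc (r = 0.896) and Dlgap4 (r = 0.881), a postsynaptic scaffold gene. The length slope was not taken out of these values. With nothing taken out, r ran from 0.390 for Grik5 with Btrc to 0.989 for Grik5 with Dlgap4.

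The comparison of the knockdown label with LacZ asked whether a virus against Slit1, a secreted axon guidance protein, goes with a change in the tissue. With stress, log2 fold changes of the members lay between -0.12 ± 0.45 (SE) for Grik3 and 0.03 ± 0.32 for Grik4. Without stress all 5 were above 0, from 0.02 ± 0.38 for Grik2 to 0.35 ± 0.45 for Grik3, none called. The values of Grik3, Grik4 and Grik5 without stress rest on 1 mouse, since without knockdown unstressed replicate 2 they were -0.16, -0.02 and -0.26, against 0.35, 0.32 and 0.17 with it. Over both stress states the intervals of the difference (95%) were -0.37 to 0.41 for Grik1, -0.54 to 0.55 for Grik2, -0.54 to 0.77 for Grik3, -0.29 to 0.64 for Grik4 and -0.66 to 0.76 for Grik5. Each interval holds both lower and higher values, so the direction was not settled at this spread. The intervals do not give the smallest change that could have been called. Adjusted p was 1.00 for every member in these 3 comparisons in edgeR's quasi-likelihood F test, Benjamini-Hochberg adjusted.

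The comparison of stressed with unstressed mice gave lower values of all 5 members under both viruses, none of them called. Within the knockdown label log2 fold changes were -0.35 ± 0.27 (SE) for Grik1, -0.44 ± 0.38 for Grik2, -0.56 ± 0.45 for Grik3, -0.38 ± 0.32 for Grik4 and -0.46 ± 0.49 for Grik5. Within LacZ they were -0.25 ± 0.27, -0.40 ± 0.38, -0.09 ± 0.45, -0.10 ± 0.32 and -0.22 ± 0.49 in the same order. The knockdown-label values of Grik3, Grik4 and Grik5 rest largely on 1 mouse. Without knockdown unstressed replicate 2 they were -0.05, -0.05 and -0.03, and over both viruses Grik3 and Grik4 were then at -0.07. With all libraries, the values over both viruses ran from -0.24 ± 0.23 for Grik4 to -0.42 ± 0.27 for Grik2. Of the stressed libraries, 9 of 14 lay below the unstressed mean of log2 CPM for Grik1 and Grik2 and 8 of 14 for the others. The median of all tested genes was -0.01, and 46.3% of them were above 0. Of the other ionotropic subunits, 12 of 12 tested also lay below 0, with a median of -0.26 and the lowest values for Grin2c at -0.38 ± 0.42 and Grid1 at -0.37 ± 0.12. Adjusted p was 1.00 for all 17 in edgeR's quasi-likelihood F test, Benjamini-Hochberg adjusted. Whether the kainate subunits differ from the other families was not tested. The 2 comparisons within a virus share no libraries with each other.

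Cell type markers were read in the same comparison, stress over both viruses, with none called, and their part in the members' values was not tested. All 5 excitatory neuron markers (median log2 fold change -0.10), all 5 deep-layer markers (-0.08), all 5 oligodendrocyte markers (-0.26) and 6 of 7 interneuron markers (-0.11) were below 0, and all 5 microglia markers (0.15) and all 3 cytotoxic T cell markers (0.55) above 0. The summed oligodendrocyte markers ran from 215 to 782 CPM in knockdown stressed, 264 to 1699 in knockdown unstressed, 366 to 703 in LacZ stressed and 357 to 990 in LacZ unstressed libraries. The summed excitatory neuron markers ran from 253 to 1112, 470 to 1033, 509 to 1070 and 402 to 1472 CPM in the same order, so the groups overlapped for both.

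The mean length slope, set beside the stress values, was -0.01 in knockdown stressed, 0.02 in knockdown unstressed, -0.01 in LacZ stressed and 0.003 in LacZ unstressed libraries. With the GC slope in the fit, the stress difference over both viruses was -0.39 ± 0.10 (SE, adjusted p = 0.411) for Grik2 and -0.30 ± 0.12 (adjusted p = 0.420) for Grik1, in edgeR's quasi-likelihood F test, Benjamini-Hochberg adjusted. With both slopes in the fit, an alternative chosen after seeing the data, it was -0.22 ± 0.09 for Grik2 and -0.05 ± 0.09 for Grik1. For Grik3, Grik4 and Grik5 it then lay above 0, at 0.08 ± 0.11, 0.12 ± 0.11 and 0.02 ± 0.08. For the knockdown label over both stress states the same fit gave values below 0 for all 5, from -0.18 ± 0.10 for Grik3 to -0.04 ± 0.10 for Grik4, where the groups alone gave values above 0. Standard errors were smaller by far, 0.07 against 0.35 for Grik5 in that comparison, and still no member was called. Leaving out the 3 libraries that stand apart turned Grik1 and Grik2 to -0.07 for the knockdown label over both stress states.

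**Figure D5:**
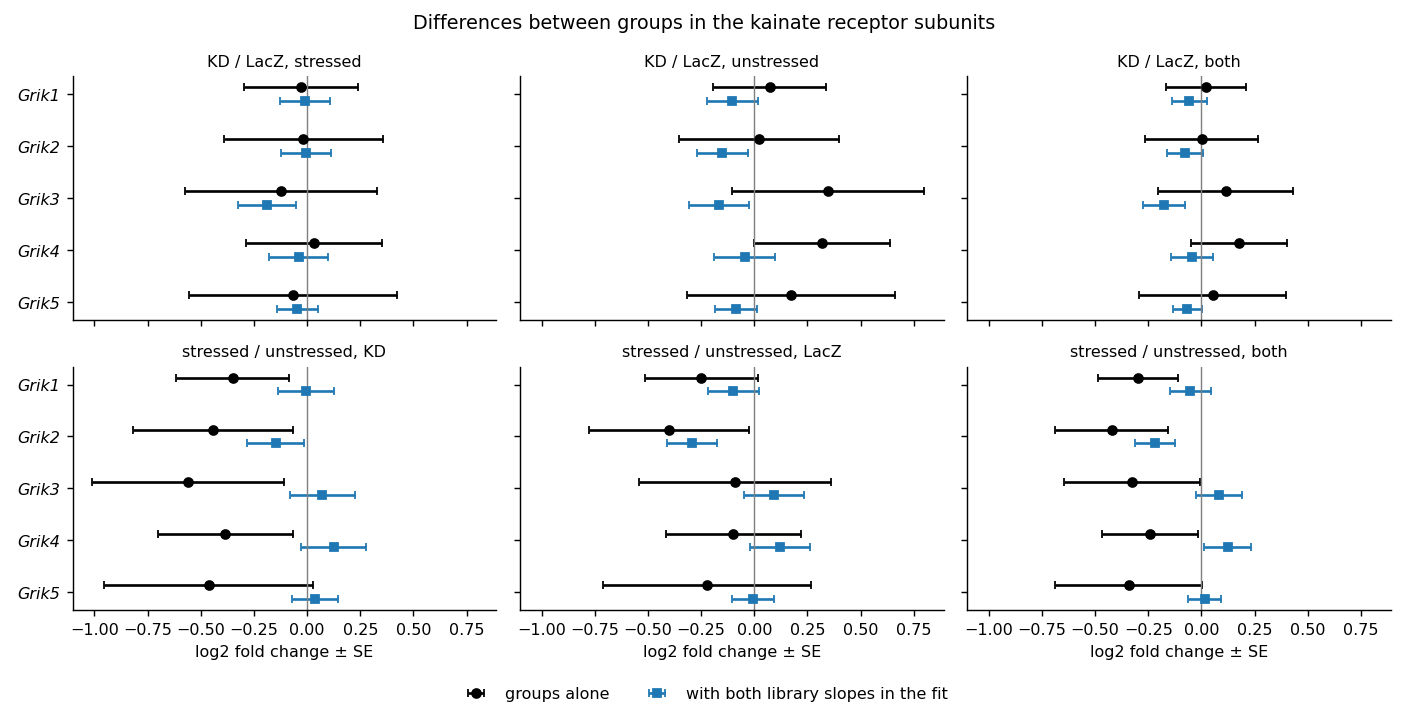
Log2 fold changes with SE of each subunit in the 6 comparisons of groups, knockdown label over LacZ in the upper row and stressed over unstressed in the lower row, from the groups alone (black circles) and with both library slopes in the fit (blue squares). Over both viruses the 5 stress values run from -0.42 to -0.24 for the groups alone and from -0.22 to 0.12 with both slopes.

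Whether stress acted differently under the 2 viruses was tested as an interaction. The log2 differences were -0.10 ± 0.38 (SE) for Grik1, -0.04 ± 0.53 for Grik2, -0.47 ± 0.64 for Grik3, -0.29 ± 0.45 for Grik4 and -0.24 ± 0.69 for Grik5, with an adjusted p of 1.00 for each in edgeR's quasi-likelihood F test, Benjamini-Hochberg adjusted. The values of Grik3, Grik4 and Grik5 turned to 0.04, 0.05 and 0.19 without knockdown unstressed replicate 2.

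Of the 7 comparisons of groups, the one with the most genes at an unadjusted p under 0.05 was stress over both viruses, with 424 by edgeR and 606 by DESeq2, and none was called by either tool. The fewest were 68 by edgeR and 73 by DESeq2, in the interaction. In edgeR's quasi-likelihood F test on the groups alone, no member had an unadjusted p under 0.05 in these comparisons. The smallest was 0.124, for Grik1 with stress over both viruses. These counts depend on the fit. With the GC slope in the fit, 1953 genes were under 0.05 for stress over both viruses. With both slopes there were 421, against 2157 for the knockdown label over both stress states. Unadjusted p values of the members in these fits are not given here.

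Of 20 genes listed as partners of kainate receptors, 18 were tested, C1ql2 and Klhl17 not passing the count filter, and none was called in a comparison of groups. Neto1 and Neto2, the auxiliary subunits that slow the gating of these channels, had -0.07 ± 0.24 (SE) and -0.17 ± 0.26 in log2 for the knockdown label over both stress states, and -0.17 ± 0.24 and -0.06 ± 0.26 for stress over both viruses. For stress 2 of 18 partners lay above 0, and the editing enzyme family member Adarb2 had the lowest value at -0.35 ± 0.19. For the knockdown label 4 of 18 lay above 0, from -0.18 ± 0.34 for the scaffold gene Pick1 to 0.05 ± 0.19 for Adarb2.

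With the GC slope 17 of the 18 partners were called, 6 higher and 11 lower, where 77.0% of all genes were called, 40.3% higher and 36.8% lower. Neto1 and Neto2 changed by -0.58 ± 0.04 and -0.67 ± 0.04 per SD, on the side of Grik2. Among the scaffolds, Dlg4, which encodes PSD-95, had 0.98 ± 0.04 and Pick1 0.87 ± 0.03, on the side of Grik5, while Dlg1 had -0.37 ± 0.03. With the length slope 7 partners were called higher and 1 lower, where 9.86% of all genes were called higher and 11.3% lower, the neurexin gene Nrxn3 at 0.38 ± 0.08 and the scaffold gene Grip1 at 0.38 ± 0.09 being the highest.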

How the data were processed

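The authors deposited raw fragment counts, which featureCounts 1.6.2 took over entire gene spans of the Ensembl release 90 annotation of GRCm38, in pairs and with no strand option, after removal of duplicates, per the file headers. The submitters' processing notes name HISAT2, Subread and DESeq2. Libraries were ribosome-depleted total RNA, per the labels' protocols, so intronic fragments enter every level. Of 52636 gene identifiers, 52403 matched a symbol.

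Counts were filtered with filterByExpr by group, given TMM factors and fitted in edgeR 4.0.16 (glmQLFit, robust, and glmQLFTest) in R 4.3.3, in 1 fit of all 28 libraries with 1 coefficient per group. A call was an adjusted p (Benjamini-Hochberg) under 0.05 over all 19171 genes. Log2 CPM used a prior count of 2. The test was checked on simulated data. Alternatives were DESeq2 1.42.0, RLE factors, no filter, a minimum of 1 CPM in 7 libraries, the slopes or 2 surrogate variables (sva 3.50.0) as covariates, only the 2 groups compared, and libraries left out. GC content and coding sequences came from GENCODE M21, which is GRCm38.

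Named were the members, the 3 genes most like each, Neto1, Neto2, Slit1, and from the lists the genes called or of highest change; partners and subunits named for the slopes were picked after their values were seen, and some genes are not reported here. The members and lists were chosen with earlier results of these data known. Replicate numbers follow accession order, which the labels do not tie to a batch, so they entered no fit. Mice are separate animals per the labels, and lanes were not given in the sources used here.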

Additional observations from a re-analysis of the deposited data

Results flagged for a closer look

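LacZ unstressed replicate 1 lay far above the other 6 mice of its group for 2 members. It had 135 CPM of Grik3, where the next of the group had 73.2 CPM, and 79.9 CPM of Grik4, where the next had 52.2 CPM. In each case the gap to the next library, taken in CPM, passed Dixon's limit for 7 samples at the 95% level. The limit was not applied to log2 CPM, where the gaps are smaller beside the range of the group, so both flags depend on the scale. In log2 CPM Grik3 was at 7.08, with the next of the group at 6.20 and the lowest at 5.29. Grik4 was at 6.32, with the next at 5.71 and the lowest at 5.04. Each of the 5 members was examined in 4 groups, and for normally distributed values chance alone gives such a gap in about 1 of 20 groups. The same library had the highest GC slope of the 28, at 1.21, and the lowest Grik2, at 471 CPM.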

How the results depend on the processing

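The calls with the GC slope held for all 5 members under DESeq2, without the 3 libraries that stand apart, with the first principal component in its place and with each library left out. The calls with the length slope held likewise under DESeq2 and without the 3 libraries, and with each library left out except for Grik2, whose coefficient ran from 0.24 to 0.31. The genes called with the length slope ran from 2646 to 4830 with each library left out. In the comparisons of groups no alternative called a member, so the sign changes that follow are of values that passed no test, and the cause was not tested. With both library slopes in the fit, an alternative chosen after seeing the data, the log2 fold change lay on the other side of 0, at -0.040 for Grik4 in knockdown against LacZ with stress. It was -0.10 for Grik1, -0.15 for Grik2, -0.17 for Grik3, -0.046 for Grik4 and -0.087 for Grik5 in knockdown against LacZ without stress. It was -0.057 for Grik1, -0.078 for Grik2, -0.18 for Grik3, -0.043 for Grik4 and -0.066 for Grik5 in knockdown against LacZ over both stress states. It was 0.072 for Grik3, 0.13 for Grik4 and 0.037 for Grik5 in stress within the knockdown label. It was 0.092 for Grik3 and 0.12 for Grik4 in stress within LacZ. It was 0.082 for Grik3, 0.12 for Grik4 and 0.016 for Grik5 in stress over both viruses. It was 0.095 for Grik1, 0.15 for Grik2, 0.0059 for Grik4 and 0.041 for Grik5 in the interaction. With the GC slope alone in the fit, it was -0.00062 for Grik4 in knockdown against LacZ with stress, and -0.018 for Grik2 in knockdown against LacZ without stress, and -0.014 for Grik2 in knockdown against LacZ over both stress states, and 0.0070 for Grik2 in the interaction. With 2 surrogate variables in the fit, it was 0.043 for Grik1 and 0.035 for Grik2 in knockdown against LacZ with stress, and -0.016 for Grik2 in knockdown against LacZ without stress, and 0.052 for Grik2 in the interaction. Without the 3 libraries that stand apart, it was -0.0081 for Grik4 in knockdown against LacZ with stress, and -0.065 for Grik1 and -0.074 for Grik2 in knockdown against LacZ over both stress states. For Grik2 in knockdown against LacZ over both stress states it was -0.00048 with DESeq2, -0.00049 with RLE factors and -0.0020 with the CPM filter.

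With each library left out in turn, the log2 fold change ran over both sides of 0 in the following cases. Knockdown against LacZ with stress gave -0.13 to 0.084 for Grik1, -0.20 to 0.17 for Grik2, -0.37 to 0.098 for Grik3, -0.19 to 0.14 for Grik4 and -0.25 to 0.11 for Grik5. Knockdown against LacZ without stress gave -0.061 to 0.26 for Grik1, -0.25 to 0.25 for Grik2, -0.16 to 0.62 for Grik3, -0.020 to 0.50 for Grik4 and -0.26 to 0.59 for Grik5. Knockdown against LacZ over both stress states gave -0.039 to 0.12 for Grik1, -0.13 to 0.12 for Grik2, -0.14 to 0.25 for Grik3 and -0.16 to 0.26 for Grik5. Stress within LacZ gave -0.31 to 0.19 for Grik3, -0.18 to 0.094 for Grik4 and -0.40 to 0.20 for Grik5. The interaction gave -0.29 to 0.044 for Grik1, -0.27 to 0.24 for Grik2, -0.75 to 0.043 for Grik3, -0.51 to 0.052 for Grik4 and -0.66 to 0.19 for Grik5. Per kb of merged exons the ranks were 2 for Grik1, 3 for Grik4 and 5 for Grik5, against 3, 5 and 2 per span, all by the mean.

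No paired analysis was possible because the labels carry no replicate numbers. The spread between mice, with a common biological coefficient of variation of 0.467, and the lowest count of 81 fragments for Grik5 limit what can be seen. Spans count introns, so levels hold unspliced RNA. The slopes come from the same libraries as the values they are set against.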
